A study of Mus musculus with 12 samples.

Results

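The chemokine receptors Cxcr6, Cxcr3, Cxcr4, Ccr1, Ccr2, Ccr4, Ccr6, Ccr7 and Ccr8 were followed across CD4-labelled cell types of the mouse model of multiple sclerosis, experimental autoimmune encephalomyelitis. All probe sets that the array annotation assigns to these 9 symbols were taken, which gave 14 probe sets of the 45037 in the table and 9 of its 18193 named genes. Cxcr6 and Ccr1 had 2 probe sets each and Ccr2 had 4, and each member is given first by its brightest probe set. RNA of C57BL/10.RIII mice was hybridised to 12 Affymetrix Mouse430_2 arrays, 3 for each of 4 cell types. The first cell type, nFoxA1Treg, is titled as induced by neurons but called natural in its cell type field, and was labelled CD4hi and PD-L1hi. Treg, regulatory T cells, were labelled CD4+ and TGFbeta+. The arrays labelled iFoxA1Treg, titled as induced with IFN-beta, were again labelled CD4hi and PD-L1hi. EncT are encephalitogenic T cells, which drive the disease, and were labelled CD4+. The labels give no treatment dose, tissue, age or sex, and do not say whether replicates came from separate animals, and the p-values here reflect spread among arrays that may be technical.

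Chemokine receptors are G protein coupled receptors that steer cells along gradients of secreted chemokines. Receptors of inflamed tissue, among them Cxcr6, Cxcr3, Ccr1 and Ccr2, are carried by effector T cells and monocytes, whereas Ccr7 takes naive and central memory T cells into lymph nodes. Ccr4 and Ccr8 are known from Th2 and regulatory T cells, Ccr6 from Th17 cells and B cells, and Cxcr4, the receptor of Cxcl12, from most leukocytes. In experimental autoimmune encephalomyelitis such receptors take part in the entry of T cells and monocytes into the central nervous system.

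Levels are log2(value + 16) after quantile normalization, with the deposited log2 values first taken back to a linear scale, so the floor is 4. A difference is tested with limma over all 12 arrays and called at an adjusted p under 0.05 (Benjamini-Hochberg over all 45037 probe sets of the comparison). The labels are set here beside RNA levels, and protein was not measured. By Cd4 RNA, the arrays labelled iFoxA1Treg went against the CD4hi of their label. Cd4, the coreceptor named in the label of every group, averaged 10.46 ± 0.067 in nFoxA1Treg and 10.41 ± 0.056 in Treg. It was 5.13 ± 0.056 in the arrays labelled iFoxA1Treg, against 10.59 ± 0.017 in EncT (SD, n = 3 each). Cd274, the gene of PD-L1, was 7.48 ± 0.11 in nFoxA1Treg, labelled PD-L1hi, and 7.75 ± 0.15 in EncT. The difference of -0.26 was called (adjusted p = 0.0464), though the arrays of these groups overlapped. Cd274 was 7.44 ± 0.034 in Treg. The arrays labelled iFoxA1Treg, also PD-L1hi by label, had Cd274 at 10.03 ± 0.039, called higher than in EncT (adjusted p = 6.42e-13). In those arrays 14 of 14 macrophage and monocyte markers, 9 of 9 B cell markers and 7 of 7 neutrophil markers were higher than in EncT, and 10 of 11 T cell markers were lower. They also differed in sex, with the female-specific transcript Xist at 4.37 ± 0.21 (11.08 ± 0.44 in EncT) and the Y-linked Eif2s3y at 9.68 ± 0.12 (4.41 ± 0.30 in EncT). Directions for these arrays are therefore directions for the arrays and not for a cell type. Foxp3, the defining factor of regulatory T cells, lay near the floor in nFoxA1Treg (4.49 ± 0.28) and in Treg (4.52 ± 0.11), as in EncT (4.36 ± 0.26). In the arrays labelled iFoxA1Treg it was 5.74 ± 0.12, called higher than in EncT (adjusted p = 8.60e-07). Foxa1 was near the floor as well, at 4.39 ± 0.063 in nFoxA1Treg, 4.35 ± 0.19 in Treg and 4.23 ± 0.17 in the arrays labelled iFoxA1Treg, against 4.02 ± 0.043 in EncT. Against EncT Foxa1 was called in nFoxA1Treg (0.37, adjusted p = 0.0417), but not in Treg (adjusted p = 0.0774) or the arrays labelled iFoxA1Treg (adjusted p = 0.133).

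**Figure D1:**
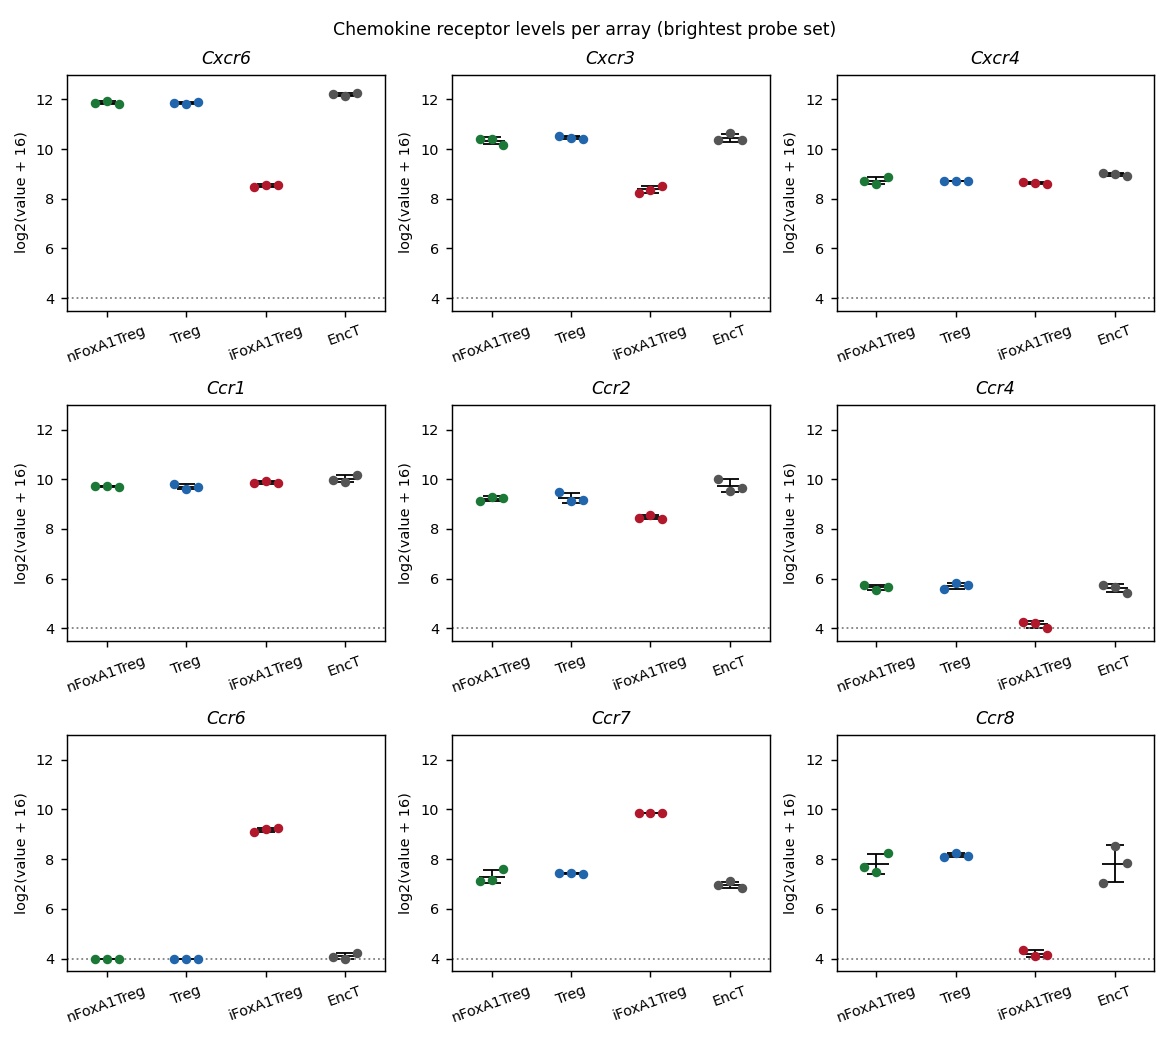
Level of each receptor by its brightest probe set on all 12 arrays (log2(value + 16), a log scale), with nFoxA1Treg, Treg and the arrays labelled iFoxA1Treg left of EncT. Points are arrays, bars are the mean ± SD of 3, and the dotted line is the floor of 4. Cxcr6, Cxcr3, Ccr4 and Ccr8 are low and Ccr6 and Ccr7 high in the arrays labelled iFoxA1Treg, while Ccr1 and Cxcr4 vary little.

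Cxcr6, Cxcr4, Ccr1 and Ccr2 were lower in both nFoxA1Treg and Treg than in EncT, and their promoter windows are shown because these members moved together. The windows run from 250 bases before to 50 after the annotated start, from RefSeq (GRCm38.p6), read 5′ to 3′ on the strand of the gene. Cxcr6 is at chr9:123806227-123806526 (+ strand), Ccr1 at chr9:123968643-123968942 (- strand), Ccr2 at chr9:124101933-124102232 (+ strand) and Cxcr4 at chr1:128592250-128592549 (- strand). Capitals mark any match, on either strand, to forkhead TGTTTAC, T-box TCACAC, AP-1 TGANTCA, KLF CACCC, RUNX TGTGGT, STAT GAS TTCNNNGAA or the ISRE, and no 2 motifs overlapped in the members' windows.
Cxcr6: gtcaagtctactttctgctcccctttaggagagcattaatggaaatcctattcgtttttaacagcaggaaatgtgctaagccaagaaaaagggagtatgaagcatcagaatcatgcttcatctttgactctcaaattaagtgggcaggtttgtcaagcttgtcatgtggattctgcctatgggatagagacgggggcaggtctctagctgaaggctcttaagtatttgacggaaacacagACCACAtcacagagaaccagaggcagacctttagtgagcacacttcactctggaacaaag
Ccr1: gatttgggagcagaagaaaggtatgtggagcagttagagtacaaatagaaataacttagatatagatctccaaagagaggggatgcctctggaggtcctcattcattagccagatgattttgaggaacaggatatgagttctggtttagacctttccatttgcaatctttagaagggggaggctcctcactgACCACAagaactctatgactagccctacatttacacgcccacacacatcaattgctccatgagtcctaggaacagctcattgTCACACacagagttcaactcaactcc
Ccr2: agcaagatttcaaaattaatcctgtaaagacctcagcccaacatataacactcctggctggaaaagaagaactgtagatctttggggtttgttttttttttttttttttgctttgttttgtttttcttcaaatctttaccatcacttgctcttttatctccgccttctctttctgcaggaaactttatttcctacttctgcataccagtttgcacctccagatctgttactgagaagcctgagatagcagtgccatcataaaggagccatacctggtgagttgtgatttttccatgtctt
Cxcr4: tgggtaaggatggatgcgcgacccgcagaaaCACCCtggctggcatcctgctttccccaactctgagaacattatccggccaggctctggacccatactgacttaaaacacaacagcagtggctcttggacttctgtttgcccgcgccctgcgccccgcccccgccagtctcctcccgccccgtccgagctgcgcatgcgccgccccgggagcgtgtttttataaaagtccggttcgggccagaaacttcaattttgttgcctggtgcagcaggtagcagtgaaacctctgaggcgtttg
The RUNX letters lie in the windows of Cxcr6 and Ccr1, as they do in 16.8% of 32851 windows of this length. Ccr1 also holds the T-box letters (14.5% of windows) and Cxcr4 the KLF letters (57.5%), and the Ccr2 window holds none of the 7 motifs. The forkhead letters, in 3.65% of windows, were in none of the 9 windows listed for 8 of the members, and there is none listed for Ccr7. Of the rest, Cxcr3 holds RUNX and T-box letters, Ccr4 holds AP-1 (7.81%) and KLF, Ccr8 KLF, and 1 of the 2 windows of Ccr6 RUNX and GAS (8.30%). ISRE letters (3.44%) were in none. A match describes letters only.

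How the receptor transcripts of FoxA1-named regulatory cells differ from those of disease-driving T cells is addressed by nFoxA1Treg against EncT. Of the 9 receptors 4 fell, 0 rose and 5 did not pass the test. Over all 18193 genes 11.6% were called, 4.86% higher and 6.70% lower. Among genes whose probe set averaged at least 8 over the 9 arrays other than those labelled iFoxA1Treg, 25.0% were called, beside 4 of the 5 members at that level. The median change of the 9 receptors was -0.12, beside -0.00012 over all genes. In bulk RNA, fewer cells with a receptor and less of its RNA per cell cannot be told apart.

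Cxcr6 (1425832_a_at), the receptor of Cxcl16 on tissue-resident and effector T cells, was 11.86, 11.94 and 11.81 in nFoxA1Treg, against 12.21, 12.13 and 12.24 in EncT. All nFoxA1Treg arrays lay below all EncT arrays. The difference was -0.32 (SE 0.049, 95% interval -0.43 to -0.22, adjusted p = 6.18e-04), or 1.25-fold lower. Its second probe set, 1422812_at, also fell (-0.31, adjusted p = 4.75e-04).

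Ccr2 (1421188_at), the receptor of Ccl2 that brings monocytes and effector T cells into the inflamed nervous system, was 9.13, 9.28 and 9.26 in nFoxA1Treg, against 10.02, 9.53 and 9.66 in EncT. The groups did not overlap, and EncT replicate 1 was the highest array. The change was -0.52 (SE 0.11, adjusted p = 0.00814), or 1.43-fold lower, and -0.37 without EncT replicate 1 (adjusted p = 0.0262). Of its 3 other probe sets, 1421186_at fell by 0.83 (adjusted p = 0.00127), while 1421187_at (-0.43, adjusted p = 0.0594) and 1460067_at (-0.34, adjusted p = 0.107) did not pass. The probe sets of Ccr2 thus gave 1 sign but differed in size.

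Ccr1 (1419609_at), a receptor of Ccl3, Ccl5 and other inflammatory chemokines on monocytes and T cells, was 9.74, 9.72 and 9.70 in nFoxA1Treg, against 9.96, 9.91 and 10.18 in EncT. The ranges were apart, and the difference was -0.30 (SE 0.071, adjusted p = 0.0141). The other probe set, 1419610_at, did not follow: it averaged 7.30 ± 0.12 in nFoxA1Treg and 7.33 ± 0.28 in EncT (SD, n = 3 each), a difference of -0.030 (95% interval -0.30 to 0.24). The call ended without nFoxA1Treg replicate 2 (adjusted p = 0.0523) or EncT replicate 3 (0.0635), with only the arrays of both groups (0.0656) and without the intensity trend (0.0550).

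Cxcr4 (1448710_at) was 8.70, 8.60 and 8.88 in nFoxA1Treg, against 9.03, 9.01 and 8.90 in EncT. The highest nFoxA1Treg array was just below the lowest EncT array. The difference of -0.25 (SE 0.070, adjusted p = 0.0314) was lost in 9 of 20 alternatives: without nFoxA1Treg replicate 1 (adjusted p = 0.108) or 2 (0.165), without EncT replicate 1 (0.0855) or 2 (0.0562), without the arrays labelled iFoxA1Treg (0.0584, and 0.0593 normalized again), with only the arrays of both groups (0.141), with arrays centred on their medians (0.0695) and without the intensity trend (0.0797).

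Ccr7 (1423466_at), the lymph node homing receptor, was 7.13, 7.16 and 7.60 in nFoxA1Treg, against 6.95, 7.10 and 6.84 in EncT. All nFoxA1Treg arrays were above EncT, but the difference of 0.33 (SE 0.10, 95% interval 0.11 to 0.56) did not pass the test (adjusted p = 0.0545). It passed in 6 of 20 alternatives, among them without nFoxA1Treg replicate 1 (adjusted p = 0.0409) and without EncT replicate 2 (0.0218). Without nFoxA1Treg replicate 3, the highest Ccr7 array of its group, the difference was 0.19 (adjusted p = 0.197). That array also had the highest summed macrophage and monocyte markers of its group (2259, against 1243 and 1340 in nFoxA1Treg replicates 1 and 2). Without the single gene Ctss these sums were 173.7, against 159.8 and 153.6. Its dendritic cell and MHC class II markers were highest too (738.1, against 407.1 and 402.7, and 344.9, against 122.6 and 124.4, without Batf3). The part of these markers in the Ccr7 value was not tested. Cxcr3 (1449925_at), the receptor of the interferon-induced Cxcl9, Cxcl10 and Cxcl11, differed by -0.12 (95% interval -0.31 to 0.068, adjusted p = 0.499), with overlapping arrays.

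Ccr4 and Ccr8 did not pass either. Ccr4 (1421655_a_at), the receptor of Ccl17 and Ccl22, differed by 0.042 (95% interval -0.21 to 0.29, adjusted p = 0.900). Ccr8 (1422291_at), the receptor of Ccl1, was 7.70, 7.49 and 8.26 in nFoxA1Treg, against 7.06, 8.53 and 7.86 in EncT, so the nFoxA1Treg arrays lay within the EncT range. The interval of its difference, -0.56 to 0.56, was the widest of the members (adjusted p = 1), and its value was -0.38 without EncT replicate 1 and 0.36 without EncT replicate 2. Ccr6 (1450357_a_at), the receptor of Ccl20, was at the floor in each nFoxA1Treg array and at most 4.23 in EncT, where values have no order. Nonoverlapping values were found for 6 of the 9 members, Ccr6 among them, and for 27.1% of all genes.

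**Figure D2:**
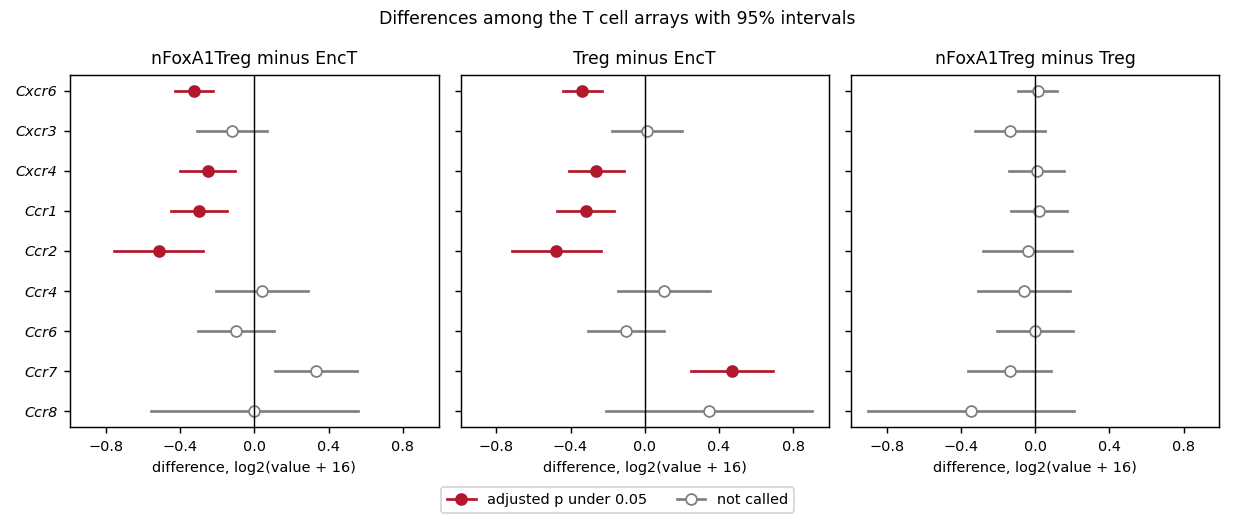
Difference of each receptor between nFoxA1Treg and EncT, Treg and EncT, and nFoxA1Treg and Treg (log2(value + 16) scale, first-named group minus second), with 95% intervals from limma. Filled red points passed an adjusted p of 0.05: Cxcr6, Cxcr4, Ccr1 and Ccr2 lie left of 0 in both comparisons with EncT, Ccr7 lies right of 0 in Treg, and no point of the third panel passed.

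Treg against EncT asks the same of the Treg-labelled cells. Of the 9 receptors 4 fell, Cxcr6, Cxcr4, Ccr1 and Ccr2, and 1 rose, Ccr7, while 4 did not pass. Over all genes 9.40% were called, 3.51% higher and 5.90% lower, and of genes at a mean of at least 8 in the arrays of these T cells 19.2%, beside 4 of 5 members. The median change was -0.10, beside -0.0015 over all genes. Both comparisons use the same EncT arrays, so their values are given side by side and not as support for each other.

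Cxcr6 was 11.87, 11.83 and 11.88 in Treg, all below the EncT arrays given above. Its difference was -0.34 (SE 0.049, adjusted p = 5.97e-04), or 1.26-fold lower, and -0.33 for the second probe set (adjusted p = 3.57e-04). Both Cxcr6 probe sets thus gave nearly the same size.

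Ccr7 was 7.44, 7.46 and 7.41 in Treg, against 6.95, 7.10 and 6.84 in EncT, with no overlap. It rose by 0.47 (SE 0.10, adjusted p = 0.0103), or 1.39-fold, and passed in 21 of 21 alternatives, with adjusted p up to 0.0492. The SD of Ccr7 was 0.26 over the nFoxA1Treg arrays and 0.025 over the Treg arrays.

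Ccr2 was 9.49, 9.12 and 9.18 in Treg, with replicate 1 just below the lowest EncT array. The change was -0.48 (SE 0.11, adjusted p = 0.0152), and it did not pass without Treg replicate 2 (adjusted p = 0.0879) or 3 (0.0743), or with only the arrays of both groups (0.0766). Its other probe sets ranged from -0.79 for 1421186_at (adjusted p = 0.00224) to -0.16 for 1460067_at (adjusted p = 0.548).

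Ccr1 was 9.80, 9.60 and 9.71 in Treg, below all EncT arrays, a difference of -0.32 (SE 0.071, adjusted p = 0.0112). The other Ccr1 probe set differed by 0.011 (95% interval -0.26 to 0.29). The call ended without Treg replicate 2 (adjusted p = 0.0710), without EncT replicate 3 (0.0513) and with only the arrays of both groups (0.0655).

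Cxcr4 was 8.72, 8.73 and 8.71 in Treg, again below EncT, a difference of -0.26 (SE 0.070, adjusted p = 0.0297). It was lost in 10 of 21 alternatives: with a replicate block in the arrays of both groups, whose replicate numbers were taken as paired (adjusted p = 0.0538), without Treg replicate 1 (adjusted p = 0.0764), 2 (0.0874) or 3 (0.10), without EncT replicate 1 (0.0784) or 2 (0.0512), without the arrays labelled iFoxA1Treg (0.0572, and 0.0589 normalized again), with only the arrays of both groups (0.0540) and without the intensity trend (0.0773). Its Treg arrays were nearly identical, and the EncT arrays set the distance.

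Cxcr3 (0.014, 95% interval -0.17 to 0.20) and Ccr4 (0.10, 95% interval -0.15 to 0.35) did not pass in Treg. Ccr8 was 8.10, 8.25 and 8.14 in Treg, inside the EncT range, with a difference of 0.35 (95% interval -0.21 to 0.90, adjusted p = 0.517). That value rested on EncT: it was -0.033 without EncT replicate 1 and 0.70 without EncT replicate 2, where it passed (adjusted p = 0.0423). Ccr6 was at the floor in each Treg array. Nonoverlapping values were found for 6 of 9 members, Ccr6 at the floor included, beside 26.8% of genes.

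**Figure D3:**
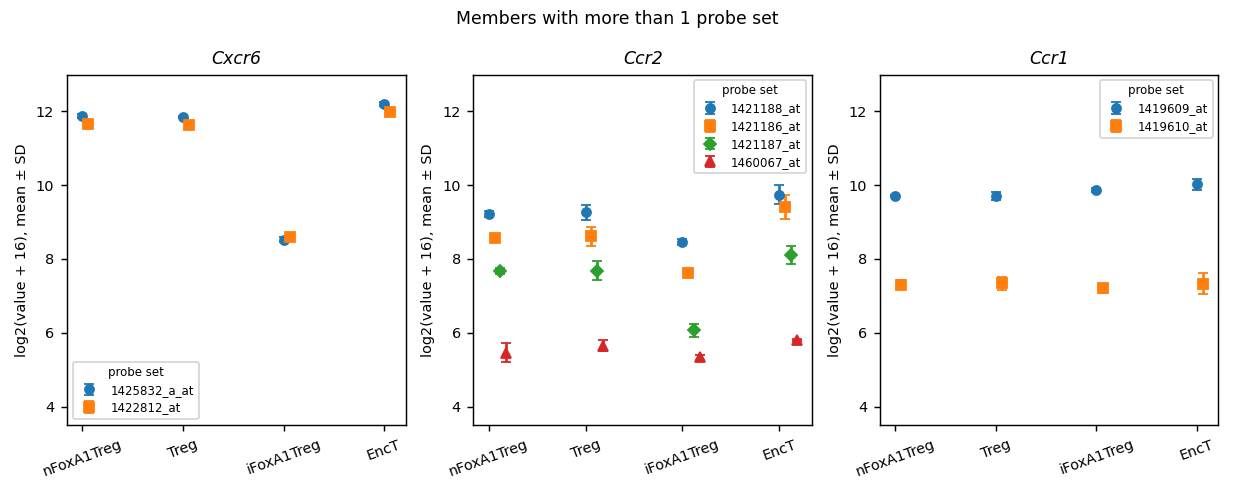
Mean ± SD (n = 3) of every probe set of Cxcr6, Ccr2 and Ccr1 in nFoxA1Treg, Treg and the arrays labelled iFoxA1Treg, left of EncT (log2(value + 16)). Both Cxcr6 probe sets and the 4 of Ccr2 are highest in EncT, while the second Ccr1 probe set lies between 7.21 and 7.34 in every group.

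Several markers of antigen-presenting cells were also lower in nFoxA1Treg and Treg than in EncT, by group mean. In nFoxA1Treg 0 of 14 macrophage and monocyte markers rose and 7 fell relative to EncT, and their summed value over the list was 1243 to 2259, against 1961 to 3137 in EncT. A single gene, the protease gene Ctss, made up 82.7% to 92.3% of that sum in each nFoxA1Treg, Treg and EncT array, and without it the sum was 153.6 to 173.7 in nFoxA1Treg and 188.8 to 200.9 in Treg, against 339.1 to 406.3 in EncT. In Treg 0 rose and 5 fell, with a sum, Ctss included, of 1911 to 2305. Of 11 dendritic cell and MHC class II markers 6 fell in nFoxA1Treg (sum 402.7 to 738.1) and 3 in Treg (705.3 to 788.5), against 861.2 to 1114 in EncT. Batf3 made up 53.3% to 69.9% of that sum in nFoxA1Treg, 42.0% to 51.6% in Treg and 25.6% to 28.3% in EncT. Without Batf3 the sum was 122.6 to 344.9 in nFoxA1Treg and 344.7 to 457.3 in Treg, against 640.4 to 806.9 in EncT. C1qa, C1qb, C1qc and Itgam were near the floor (a mean under 5) in all 3 T cell groups, and Lyz2, Csf1r, Cybb and Fcgr3 in nFoxA1Treg and Treg but not in EncT. Of 9 B cell markers 2 fell in nFoxA1Treg and 0 were called in Treg. Ccr1 and Ccr2 are also genes of monocytes, and the part of these markers in the receptor differences was not tested. Of 11 T cell markers 3 fell in nFoxA1Treg and 2 in Treg, and 0 rose in either. Beside these marker counts, 11.6% of all genes were called in nFoxA1Treg and 9.40% in Treg.

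nFoxA1Treg against Treg compares the groups labelled as regulatory cells directly, in which Foxp3 and Foxa1 were near the floor. Limma called 0 of the 9 receptors, with 0 at an unadjusted p under 0.05, beside 0.0220% of all genes called. The count was 0 under the alternatives too. The members with the narrowest and the widest interval were Cxcr6 (0.013, 95% interval -0.090 to 0.12) and Ccr8 (-0.35, 95% interval -0.90 to 0.21). Ccr2 differed by -0.041 (95% interval -0.28 to 0.20), Ccr7 by -0.14 (-0.36 to 0.083) and Cxcr3 by -0.13 (-0.32 to 0.054). Single arrays moved the values of Ccr8 and Ccr7: Ccr8 was -0.57 without nFoxA1Treg replicate 3 and -0.19 without replicate 2, and Ccr7 was -0.29 without replicate 3, -0.071 without replicate 2 and -0.057 without replicate 1. Cxcr3 was the member without overlap, at 10.42, 10.41 and 10.17 in nFoxA1Treg, against 10.52, 10.46 and 10.42 in Treg, beside 11.1% of genes. Its nearest arrays were at 10.4199 and 10.4205. In the deposited values the groups overlapped, with 10.4458 in nFoxA1Treg replicate 1 and 10.4406 in Treg replicate 2.

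The arrays labelled iFoxA1Treg differed from every T cell group in most receptors, as they did in most genes: 8 of 9 members were called against EncT, 7 against Treg and 7 against nFoxA1Treg. Of all genes 58.5% were called against EncT (29.5% higher, 29.0% lower), 59.4% against Treg (30.1% higher, 29.3% lower) and 60.1% against nFoxA1Treg (30.1% higher, 30.1% lower). Ccr6 and Ccr7 rose in all 3 comparisons, and Cxcr6, Cxcr3, Ccr2, Ccr4 and Ccr8 fell. Ccr6 was 9.09, 9.22 and 9.24 in these arrays, and between the floor and 4.23 in every other array. Its change against EncT was 5.08 (adjusted p = 5.28e-16), and since it starts at the floor that size follows the offset, from 3.27 to 10.80 across the alternatives. Ccr7 was 9.85, 9.84 and 9.85, higher than in EncT by 2.88 (SE 0.10, adjusted p = 9.94e-13) and than in Treg by 2.41 (adjusted p = 8.57e-12).

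Cxcr6 was 8.45, 8.57 and 8.55 in the arrays labelled iFoxA1Treg, a change of -3.67 against EncT (SE 0.049, adjusted p = 8.84e-18), or 12.7-fold lower. Cxcr3 was 8.24, 8.36 and 8.53 there, against 10.36, 10.63 and 10.37 in EncT, a change of -2.08 (adjusted p = 8.26e-12). These receptors stayed well above the floor in arrays whose T cell markers were low but present, with a summed value of 6334 to 6640, against 23326 to 25528 in EncT.

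Ccr8 was 4.36, 4.09 and 4.15 and Ccr4 4.27, 4.23 and 4.0 in the arrays labelled iFoxA1Treg, both near the floor. Against EncT the changes were -3.62 for Ccr8 (adjusted p = 5.92e-09, from -6.74 to -2.06 across the alternatives) and -1.44 for Ccr4 (adjusted p = 2.39e-08, from -6.46 to -0.56). Ccr2 was 8.46, 8.56 and 8.39, a change of -1.27 against EncT (adjusted p = 6.96e-08), while the macrophage and monocyte markers summed to 29292 to 29622 in these arrays. The other Ccr2 probe sets ranged from -2.04 for 1421187_at (adjusted p = 2.37e-09) to -0.47 for 1460067_at (adjusted p = 0.00488).

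Ccr1 and Cxcr4 differed least. Ccr1 was 9.83, 9.94 and 9.83 in the arrays labelled iFoxA1Treg, not called against EncT (-0.15, adjusted p = 0.0927), Treg (0.17, adjusted p = 0.0552, called in 6 of 18 alternatives) or nFoxA1Treg (0.15, adjusted p = 0.0875). Cxcr4 was 8.68, 8.65 and 8.61, a change of -0.33 against EncT (adjusted p = 7.07e-04) and not called against Treg (-0.072, adjusted p = 0.413) or nFoxA1Treg (-0.081, adjusted p = 0.350). The sex of the RNA, the cell type markers and the label cannot be told apart in any of these comparisons.

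**Figure D4:**
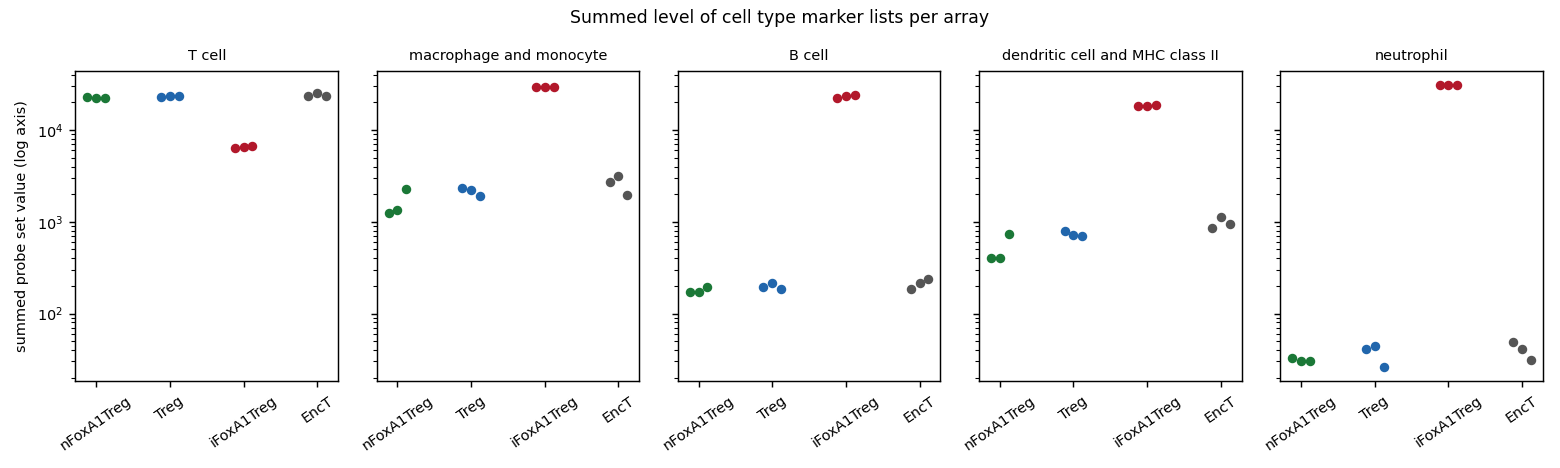
Summed probe set value of 5 marker lists on each array, on a logarithmic axis, for nFoxA1Treg, Treg and the arrays labelled iFoxA1Treg, left of EncT. The arrays labelled iFoxA1Treg have macrophage and monocyte sums of 29292 to 29622 and T cell sums of 6334 to 6640, and the other groups have T cell sums of 22394 to 25528.

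The order of the groups differed between receptors. Cxcr6 and Cxcr4 ran from EncT over nFoxA1Treg and Treg to the arrays labelled iFoxA1Treg, and Ccr2 from EncT over Treg and nFoxA1Treg to those arrays, with the neighbours nFoxA1Treg and Treg not called apart in any of the 3. For Cxcr4 the last step, below Treg, was not called either. Ccr7 ran the other way, from the arrays labelled iFoxA1Treg over Treg and nFoxA1Treg to EncT, with only the first step called between neighbours. In Ccr1 no neighbouring groups were called apart. For Cxcr3, Ccr4 and Ccr8 the lone called step was the one down to the arrays labelled iFoxA1Treg, and for Ccr6 the one down from them.

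Over the 9 arrays of nFoxA1Treg, Treg and EncT, the genes whose levels ran most like those of Cxcr6 were Snrk (Pearson r = 0.983), Madd (0.981) and Tprgl (0.980), among 4363 other genes with a mean of at least 8 there. For Ccr2 they were Pnrc1 (r = 0.989), Kmt2c (0.976) and Nbr1 (0.975), for Ccr1 Npc2 (0.953), Abhd4 (0.948) and Man1a (0.947), and for Cxcr4 Unc50 (0.963), Anln (0.960) and Ccndbp1 (0.959). For Cxcr3, which was not called between these groups, r was lower: Ywhab (0.864), Camk2b (0.822) and Hnrnpul1 (0.816). These correlations describe 9 arrays that share 3 groups and the same normalization.

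Of 7 other chemokine receptors measured 0 rose and 1 fell in nFoxA1Treg and the same in Treg relative to EncT: Cxcr5, which guides cells into B cell follicles, at 4.26 ± 0.25 in nFoxA1Treg and 4.25 ± 0.14 in Treg, against 4.80 ± 0.27 in EncT (SD, n = 3 each, adjusted p = 0.0290 and 0.0305), all near the floor. Of 5 receptors listed as atypical, which do not signal through G proteins, Ccrl2 fell in both (-0.54, adjusted p = 0.0187, in nFoxA1Treg and -0.69, adjusted p = 0.00521, in Treg) and 0 rose. Beside both lists, 11.6% of all genes were called in nFoxA1Treg and 9.40% in Treg.

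Ligands of the members moved both ways: of 17 measured, 1 rose and 3 fell in nFoxA1Treg (list median -0.0023), and 3 rose and 2 fell in Treg (median 0.047), beside 11.6% and 9.40% of all genes called. Ccl22, a ligand of Ccr4 made by dendritic cells, was 5.18 ± 0.81 in nFoxA1Treg, against 7.24 ± 0.29 in EncT (-2.06, adjusted p = 3.49e-04). Ccl6, a ligand of Ccr1, was near the floor at 4.14 ± 0.096 in nFoxA1Treg and 4.32 ± 0.24 in Treg, against 5.18 ± 0.21 in EncT (adjusted p = 1.17e-04 and 6.65e-04), so the size of its fall follows the offset. The ligand Ccl5 fell by 0.85 (adjusted p = 0.0295) and 0.98 (adjusted p = 0.0157) in the same order.

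Cxcl10, a ligand of Cxcr3, rose by 0.56 in nFoxA1Treg (adjusted p = 0.0434) and by 1.67 in Treg (adjusted p = 3.11e-05), where the EncT mean of 4.79 was near the floor. It was the ligand called between these groups, at 5.35 ± 0.48 in nFoxA1Treg, against 6.46 ± 0.057 in Treg (-1.11, adjusted p = 0.0437). Cxcr3 itself was not called in any of these comparisons.

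In the list of G protein signalling and desensitisation 1 of 17 rose and 2 fell in nFoxA1Treg, and 2 rose and 2 fell in Treg (medians -0.083 and -0.086). Over all genes 11.6% were called in nFoxA1Treg and 9.40% in Treg. Rgs2, which shortens G protein signals, rose by 0.89 in nFoxA1Treg (adjusted p = 2.30e-05) and by 0.86 in Treg (adjusted p = 4.45e-05). Rgs1, another such regulator in lymphocytes, rose by 1.11 in Treg (adjusted p = 0.00961). Arrb1, an arrestin that uncouples activated receptors, fell by 0.89 in nFoxA1Treg (adjusted p = 0.00303) and by 0.95 in Treg (adjusted p = 0.00236). Of 17 genes of the migration machinery 0 rose and 1 fell in nFoxA1Treg, and 0 rose and 2 fell in Treg, beside the same 11.6% and 9.40%.

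Among 14 transcription factors of helper lineages 0 rose and 4 fell in each of nFoxA1Treg and Treg, beside 11.6% and 9.40% of all genes called. In nFoxA1Treg Maf fell by 0.62 (adjusted p = 8.02e-04), Bcl6, the factor of follicular helper cells, by 0.57 (adjusted p = 9.64e-04) and Prdm1, which opposes Bcl6, by 0.55 (adjusted p = 8.43e-04). In Treg Bcl6 fell by 0.61 (adjusted p = 7.53e-04) and Prdm1 by 0.61 (adjusted p = 5.51e-04). Between nFoxA1Treg and Treg 0 of the genes of these last 3 lists were called by limma.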

How the data were processed

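RNA of 12 arrays in 4 labelled groups of 3 was analysed. The deposited values are log2 probe set levels without an offset, per the file's values, and PLIER, a probe set summary, is named per the submitters' processing notes. Their normalization is not given in these sources. The array annotation gave the gene names (34945 probe sets with 1 gene, 932 with several, 9160 with none), and 34741 matched the reference gene table by Entrez identifier, with 0 symbols changed. Because dim probe sets ran below 0, 16 was added to the linear value, log2 was taken and arrays were quantile normalized. Limma 3.58.1 (R 4.3.3) was fitted to all 45037 probe sets: 1 mean per group (8 residual degrees of freedom), eBayes with an intensity trend, two-sided, 6 comparisons. In simulated data with 200 changed probe sets, the fit recovered nearly all log2 changes of 1 or more. Changes of 0.5, the size of the largest member changes among the T cell groups, were recovered incompletely. Many more probe sets were called against EncT in the real data, so the recovered shares need not hold for them. The number of arrays limits the precision. The labels state no pairing. Over all groups, deviations of arrays with the same replicate number correlated at a median of 0.0084, with 7 of 18 pairs over 0.1. Arrays with different numbers correlated at a median of -0.0029 (up to 0.36), with 10 of 36 pairs over 0.1. Deviations of arrays with the same replicate number correlated over 0.1 in 3 of 3 pairs for Treg with EncT (0.19 to 0.35). The same held for the arrays labelled iFoxA1Treg with EncT (0.13 to 0.19). It held in 0 of 3 pairs for nFoxA1Treg with EncT (-0.38 to -0.041) and with Treg (-0.25 to -0.15). Treg with EncT and the arrays labelled iFoxA1Treg with EncT were taken as paired, only to add a replicate block as an alternative. These correlations do not establish a pairing, since arrays with different numbers reached higher values. The deviations within a group are also not independent, and the arrays labelled iFoxA1Treg differed from EncT in sex.

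Members, gene lists, motifs and tests were chosen with earlier results of these data known. The genes named from lists were those called among nFoxA1Treg, Treg and EncT with a change of at least 0.5, up to 4 a list and comparison. Alternatives were other offsets (none, 4, 64), normalizations, filters, array sets, array weights, no trend, a replicate block and each replicate left out. Marker sums add linear values of the brightest probe set per gene, and a mean under 5 counts as near the floor.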

Additional observations from a re-analysis of the deposited data

How the results depend on the processing

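No called receptor change reversed in direction under the alternatives. The number of receptors called was within 1.5 times that reported (4 for nFoxA1Treg and 5 for Treg, both against EncT) except in these settings. With only the arrays of the 2 groups it was 2 in nFoxA1Treg and 2 in Treg, and without the intensity trend 2 in nFoxA1Treg. The cause was not tested in either setting. Leaving out 1 replicate gave 2 to 4 in nFoxA1Treg (2 without nFoxA1Treg replicate 2) and 2 to 5 in Treg (2 without Treg replicate 2, 3 without Treg replicate 3). A replicate block over all arrays called 4 in nFoxA1Treg and 5 in Treg, as without it. For Treg against EncT, where the replicate numbers were taken as paired, a replicate block in the 6 arrays of these groups, added after the data were seen, called 4, without Cxcr4. The same block changed no member call of the arrays labelled iFoxA1Treg against EncT. The count without the arrays labelled iFoxA1Treg was 3 in nFoxA1Treg and 4 in Treg, and the same after a second normalization, an alternative added after the data were seen. Over all probe sets, 4502 were called for nFoxA1Treg and 3795 for Treg, but 1984 and 2003 with only the arrays of both groups, 2614 and 2646 without nFoxA1Treg replicates 1 and 2, and 1976 and 2109 without Treg replicates 2 and 3. Between nFoxA1Treg and Treg 7 were called, 26 with array weights and 41 without nFoxA1Treg replicate 3. Sizes near the floor (Ccr6, Ccr4, Ccr8, Ccl6) follow the offset.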

Other observations

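The arrays labelled iFoxA1Treg, which carried markers of myeloid and B cells, also held high levels of the members' ligands. Of 17 ligands measured, 14 were higher and 3 lower than in EncT, with a median change of 2.47, beside 29.5% of all genes higher and 29.0% lower. Ccl8 stood at 13.74 in those arrays and 5.03 in EncT, Ccl12 at 13.44 and 4.53, and Ccl2, a ligand of Ccr2, at 12.91 and 5.63. The listed ligands of Ccr8, which was low there, went opposite ways: Ccl1 was low (4.23, against 7.26 in EncT) and Ccl8 high. Cxcr2, a neutrophil receptor, was 8.26 in those arrays and 4.07 in EncT, and Cxcr5, a B cell receptor for Cxcl13, 9.20 and 4.80. These 6 genes were chosen after their values were seen.

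Gzma, a granzyme gene of cytotoxic cells, had a linear value of 3564 to 3781 in nFoxA1Treg and 3994 to 4250 in Treg. It was 1006 in EncT replicate 1, which had the highest Ccr2 and the lowest Ccr8 of its group, and 4161 and 4457 in EncT replicates 2 and 3. The other 7 CD8 T and NK cell markers summed to 292.4 in EncT replicate 1 and 279.1 and 280.8 in replicates 2 and 3, so the gap lay in Gzma, which was chosen after its values were seen. The part of Gzma in the receptor differences was not tested.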
